A study of Mus musculus with 564 samples.

Results

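Ccl17, Ccl22 and Ccl24 encode chemokines of the type 2 response, and histone H3 lysine 27 acetylation (H3K27ac) was followed at the cis-regulatory elements (CREs) around them in mouse bone marrow-derived macrophages. A CRE counted as a member when its centre lay within 25 kb of a RefSeq transcription start of 1 of the 3 genes in the mm10 genome, whatever its value, and 15 of the 59190 CREs met this rule. Ccl17 had 6 of them, Ccl22 had 4 and Ccl24 had 5. Each is named by its gene and by the distance of its centre from the start, with a minus sign upstream and a plus sign downstream of it, and the CRE nearest to a start within 2 kb is called the promoter CRE.

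Ccl17 and Ccl22 are ligands of the receptor Ccr4, which draws type 2 helper T cells and regulatory T cells, and their genes lie near each other on the same chromosome, with Cx3cl1, the gene of another chemokine, between them. Ccl24, an eotaxin, is a ligand of Ccr3, the receptor that draws eosinophils. IL-4 acts on macrophages through a receptor that switches on JAK kinases and the transcription factor Stat6, while LPS acts through Toll-like receptor 4 and leads to NF-kB, AP-1 and interferon signals. H3K27ac marks the nucleosomes beside active promoters and enhancers.

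Chromatin was precipitated with an antibody to H3K27ac from wild-type macrophages grown from the bone marrow of male C57/BL6 mice aged 6 to 8 weeks. Every culture received the vehicle DMSO or 1 of 58 clinical kinase inhibitors for 1 h, and then stayed unstimulated (UT) or received LPS or IL-4, each at 10 ng/mL, for 30 min, 1 h, 2 h or 4 h. The DMSO libraries made up 9 groups of 2 (18 libraries), and 546 further libraries came from inhibitors, most of them 1 per inhibitor, stimulus and time. Over all treatments there were 75 UT, 249 LPS and 240 IL-4 libraries. The concentration differed between inhibitors. The labels do not say whether the 2 replicates of a DMSO group came from separate animals, so the p-values measure the spread between these libraries, which may be technical. In such bulk chromatin, fewer cells carrying a mark and less mark per cell cannot be told apart.

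The deposited values were normalised read counts rounded to whole numbers, and their totals ran from 4066894 to 12391409 per library. The value of 1 read could be estimated in 15 of the 18 DMSO libraries, where it lay between 1.22 and 2.54, and in 522 of the 546 inhibitor libraries, where its median was 3.69. Both DMSO UT libraries and replicate 1 of the DMSO IL-4 group at 1 h gave no estimate. A value of 10 in the DMSO libraries with an estimate thus rested on a few reads. Values belong to whole CREs, whose lengths differ. Of 8 macrophage marker genes, all 8 had a promoter CRE, with UT values between 218 and 2118. Of 18 marker genes of other cells, 6 had 1, and 4 of these had UT values between 3 and 18, while the eosinophil receptor gene Ccr3 stood at 863 and 771 and the erythroid factor gene Klf1 at 134 and 138. After LPS 6 of the 8 macrophage markers were called lower (median log2 difference of the 8, -1.66), beside the Ccl24 losses, and 1 of the 8 after IL-4. Of the markers of other cells none was called after LPS, while Flt3, a dendritic cell marker with 8 and 6 in UT, was called higher after IL-4 (1.51 ± 0.33, limma, adjusted p = 0.00153) and Ccr3 lower. The part of these shifts in the results was not tested.

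The stretches of sequence below show the searched members with an NF-kB type or a STAT6 type motif, 1 for each gene. The promoter of Ccl22, which held none of the motifs searched, is printed too. The sequences are RefSeq GRCm38.p6 (mm10), plus strand, 5′ to 3′. Capitals mark the motif, an NF-kB type motif (GGGANTTNCC) in the Ccl17 and Ccl22 CREs and a STAT6 type motif (TTCNNNNGAA) in the Ccl24 CRE. The stretches lie at chr8:94785443-94785572, chr8:94754422-94754551, chr5:135551665-135551794 and chr8:94745434-94745683.
Ccl17 -23.9 kb CRE: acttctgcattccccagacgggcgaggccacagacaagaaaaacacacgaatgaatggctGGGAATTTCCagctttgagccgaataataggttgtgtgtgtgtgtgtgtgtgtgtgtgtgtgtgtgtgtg
Ccl22 +8.8 kb CRE: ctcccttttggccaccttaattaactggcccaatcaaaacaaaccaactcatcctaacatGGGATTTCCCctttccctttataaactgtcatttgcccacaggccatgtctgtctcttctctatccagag
Ccl24 +21.2 kb CRE: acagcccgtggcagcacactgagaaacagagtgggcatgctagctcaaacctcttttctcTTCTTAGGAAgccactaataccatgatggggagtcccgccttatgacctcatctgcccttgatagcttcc
Ccl22 promoter, the 250 bases before the start: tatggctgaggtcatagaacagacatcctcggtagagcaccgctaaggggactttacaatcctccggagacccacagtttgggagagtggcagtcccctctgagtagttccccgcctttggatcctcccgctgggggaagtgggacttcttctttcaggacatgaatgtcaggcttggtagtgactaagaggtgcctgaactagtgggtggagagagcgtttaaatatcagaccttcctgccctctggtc

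The motifs searched, 4 in all, were read on both strands in the central 300 bases of 14 members, all but the Ccl24 promoter CRE. Whether the Ccl24 promoter CRE holds any of the 4 motifs was not tested. The NF-kB type motif was in 2 of the 14, those printed above, and in 2.2% of all 59190 CREs. The STAT6 type motif was in 1 of the 14 and in 9.21% of all CREs. The AP-1 type motif TGANTCA was in 4 of the 14, namely the Ccl17 +16.2 kb, Ccl22 +10.8 kb, Ccl24 +4.3 kb and Ccl24 -9.4 kb CREs, and in 20.2% of all CREs. The PU.1 type motif GAGGAAGT was in 3 of the 14, namely the Ccl17 -5.8 kb, Ccl17 +12.3 kb and Ccl24 -2.6 kb CREs, and in 9.11% of all CREs. None of the 4 motifs overlapped another in the letters printed in capitals. In the 250 bases before each of 32851 RefSeq starts, the shares holding the 4 motifs, in the order given here, were 0.98%, 5.85%, 6.75% and 2.44%.

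The 10 CREs of Ccl17 and Ccl22 lay on chromosome 8 between positions 94739130 and 94827430. Those of Ccl22, whose start is at 94745684, were the -5.7 kb CRE (chr8:94739130-94740784), the promoter CRE (chr8:94744774-94746397), and the +8.8 kb and +10.8 kb CREs (chr8:94753668-94755360 and chr8:94755631-94757303). The Ccl17 -23.9 kb CRE (chr8:94784672-94786293) lay in an intron of the predicted gene Gm51543, and the Ccl17 -5.8 kb CRE (chr8:94801676-94805536) was intergenic. The Ccl17 promoter CRE (chr8:94807560-94809226) ended before the curated start of the gene at 94810453, with its centre 987 bp before the start of a predicted transcript at 94809380. The +2.0 kb CRE (chr8:94811138-94813757) overlapped an exon of Ccl17. The +12.3 kb and +16.2 kb CREs (chr8:94821993-94823575 and chr8:94825794-94827430) lay within Ciapin1, in an untranslated exon and in an intron.

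The Ccl24 gene lies on the minus strand of chromosome 5, with starts at 135573049 and 135573123. Its 5 CREs were the +21.2 kb CRE (chr5:135551005-135552612), which lay 6486 bp from a start of the neighbouring gene Hip1, the +4.3 kb CRE (chr5:135567853-135569706), the promoter CRE (chr5:135572409-135574060), the -2.6 kb CRE (chr5:135574893-135576566) and the -9.4 kb CRE (chr5:135581792-135583314).

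The first comparison asked which of the CREs gained or lost acetylation after LPS. All 4 Ccl22 CREs and 4 of the 6 Ccl17 CREs rose, with their highest values at 1 h. Among the Ccl24 CREs 3 fell, 1 rose and 1 passed no threshold. A call needed an adjusted p under 0.01 in limma's moderated F test of the 4 LPS times together against UT (Benjamini-Hochberg over all tested CREs) and a difference beyond 1 on the log2(value + 5) scale at 1 or more of these times. This scale understates the change of low values. Of the 15 CREs 12 were called, 9 higher and 3 lower, while over all 50697 CREs in the test the share called was 53.5%, with 29% higher and 24.6% lower. The median difference of all tested CREs stayed within 0.12 of 0 at each time, and at 1 h it was 0.09, against medians of 2.10 for the Ccl17 CREs, 2.59 for the Ccl22 CREs and 0.20 for the Ccl24 CREs.

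The Ccl22 promoter CRE stood at 12 and 11 in the 2 UT libraries. It stood at 38 and 55 at 30 min after LPS, at 94 and 95 at 1 h, at 69 and 67 at 2 h, and at 48 and 35 at 4 h. Every LPS library lay above both UT libraries, and the replicates were closest together at the 1 h peak. The log2 difference from UT was 2.59 ± 0.27 (SE, n = 2 libraries per group) at 1 h and still 1.48 ± 0.27 at 4 h (limma F test over the times, adjusted p = 2.7e-09). The 4 h values were lower than every 1 h and 2 h value, whereas those at 30 min and 4 h overlapped.

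The Ccl22 -5.7 kb CRE, upstream of the gene, went from 4 and 1 in UT to 13 and 21 at 30 min, 60 and 43 at 1 h, 49 and 46 at 2 h, and 33 and 21 at 4 h. Its libraries at 1 h and 2 h overlapped, and the log2 difference was 2.93 ± 0.35 at 1 h and 2.10 at 4 h (limma F test, adjusted p = 8.52e-09). The CREs downstream of Ccl22 had lower values. The +8.8 kb CRE, which carries the NF-kB type motif printed above, went from 7 and 0 in UT through 20 and 19 at 30 min to 46 and 38 at 1 h, 35 and 22 at 2 h, and 22 and 7 at 4 h. The +10.8 kb CRE went from 4 and 3 through 20 and 13 to 39 and 45 at 1 h, 14 and 21 at 2 h, and 11 and 5 at 4 h. At 4 h 1 library of the +8.8 kb CRE equalled the higher UT library, while both libraries of the +10.8 kb CRE remained above UT. At 1 h the log2 differences were 2.60 ± 0.41 and 2.47 ± 0.38 (limma F test, adjusted p = 1.23e-05 and 1.02e-05).

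**Figure D1:**
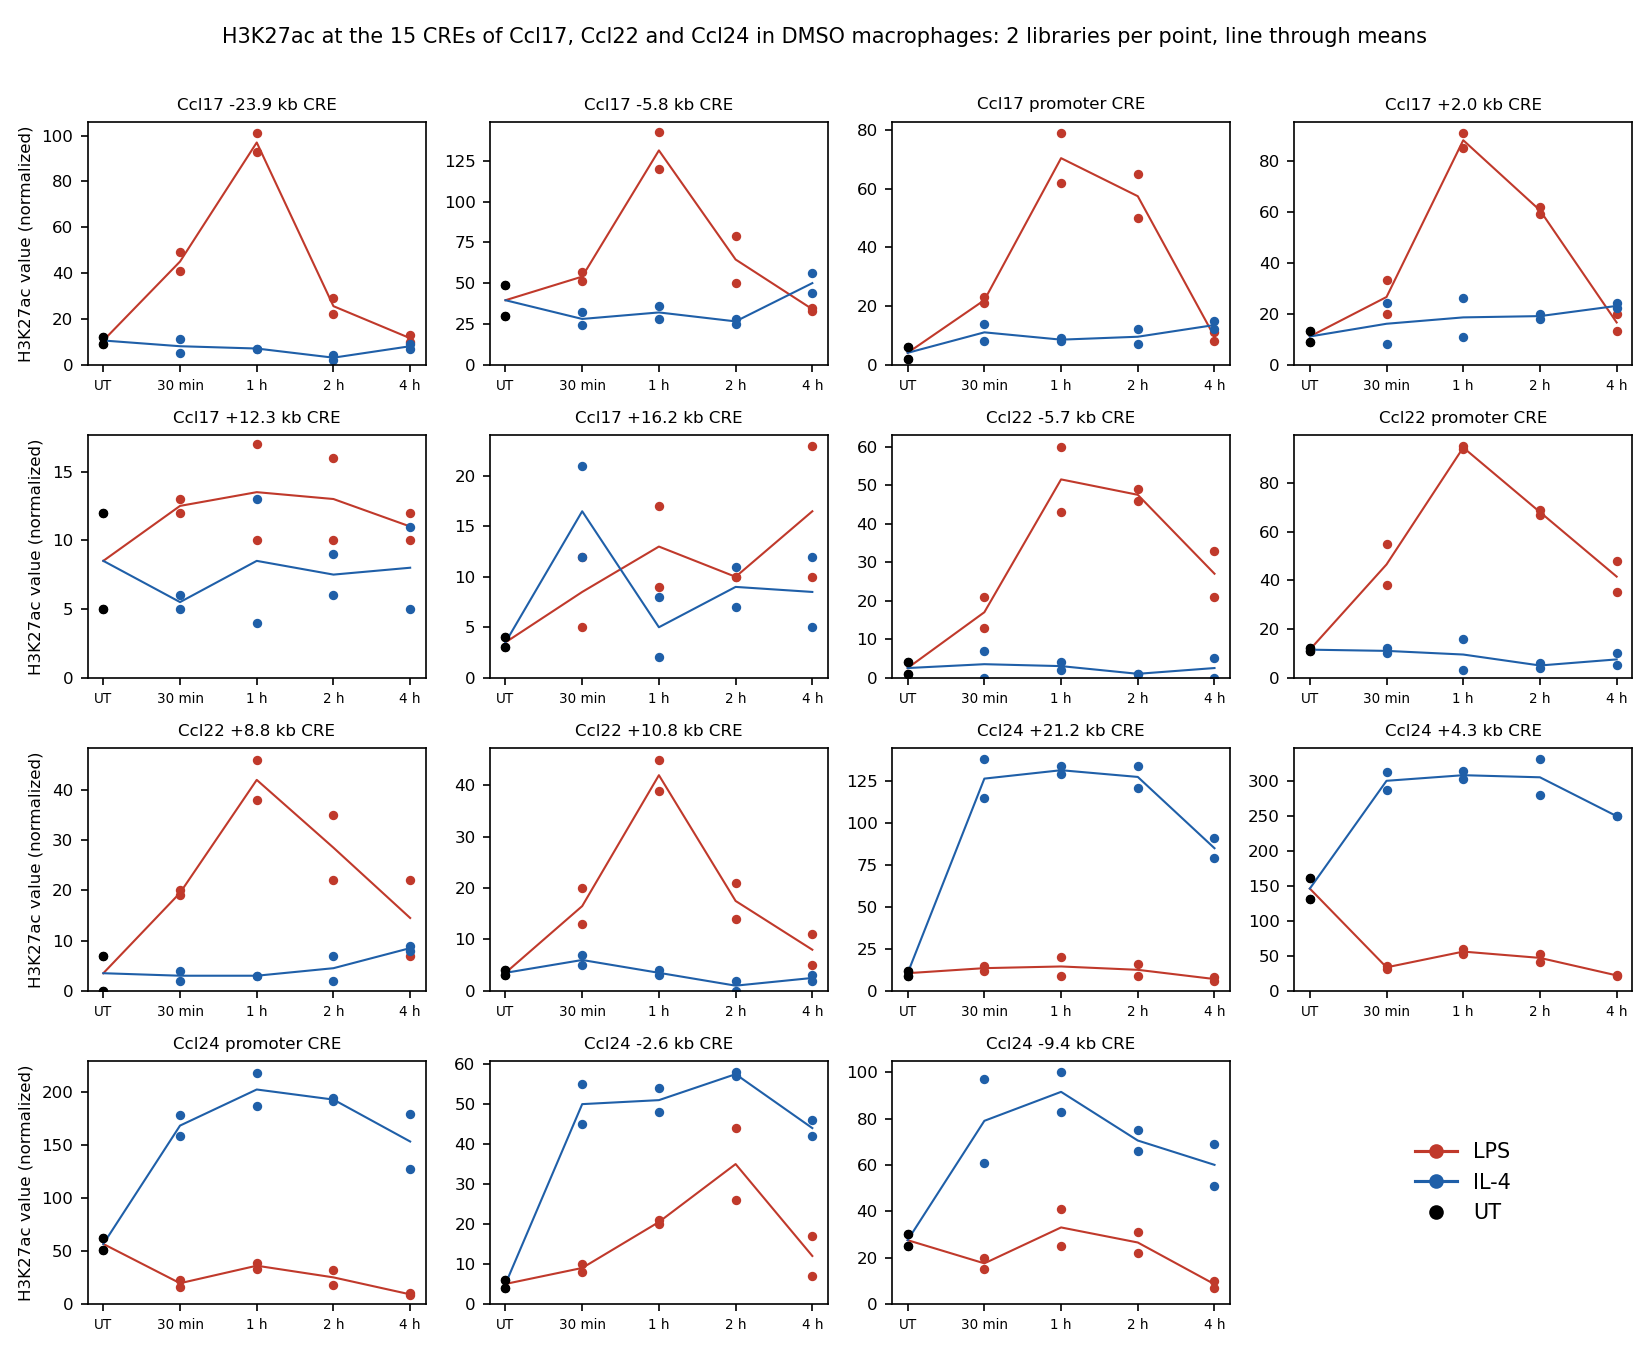
H3K27ac value (normalised, linear axis from 0) of each of the 15 CREs in DMSO macrophages against time, with the times evenly spaced and not to scale. Points are single libraries (2 per group, black for UT, red for LPS, blue for IL-4) and lines join the group means. The Ccl22 promoter CRE peaks at 94 and 95 at 1 h of LPS, and the Ccl24 promoter CRE reaches 186 and 218 at 1 h of IL-4.

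Acetylation around Ccl17 also peaked at 1 h of LPS and was back near UT at 4 h. The Ccl17 promoter CRE stood at 6 and 2 in UT, at 23 and 21 at 30 min after LPS, at 79 and 62 at 1 h, at 65 and 50 at 2 h, and at 11 and 8 at 4 h. The values at 1 h and 2 h overlapped, and those at 4 h lay just above UT and below every other LPS library. The log2 difference was 3.10 ± 0.34 at 1 h and 0.72 at 4 h, where the adjusted p for that time alone was 0.0697 (limma F test over the times, adjusted p = 3.48e-10).

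The Ccl17 +2.0 kb CRE, which overlapped an exon of the gene but had its centre outside it, followed the same course. It had 9 and 13 in UT, 20 and 33 at 30 min, 91 and 85 at 1 h, 59 and 62 at 2 h, and 13 and 20 at 4 h. Its log2 difference at 1 h was 2.55 ± 0.31 (limma F test, adjusted p = 6.05e-09). The -23.9 kb CRE, with the other NF-kB type motif, dropped most between 1 h and 2 h and was back near UT at 4 h. It had 9 and 12 in UT, 41 and 49 at 30 min, 93 and 101 at 1 h, 22 and 29 at 2 h, and 10 and 13 at 4 h. The replicates of the 1 h group lay far above all others, with a log2 difference of 2.72 ± 0.31 (limma F test, adjusted p = 1.53e-09). At 2 h the difference was 0.97 ± 0.31, with both libraries still above UT.

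The Ccl17 -5.8 kb CRE, the widest of the members, had the highest UT values around this gene, 49 and 30. It reached 120 and 143 at 1 h of LPS and fell back to 33 and 35 at 4 h, between the UT libraries. The log2 difference was 1.65 ± 0.26 at 1 h (limma F test, adjusted p = 1.41e-06) and -0.16 at 4 h.

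The Ccl17 CREs within Ciapin1 were not called. The +12.3 kb CRE had 12 and 5 in UT and between 10 and 17 in the 8 LPS libraries, with a log2 difference of 0.48 ± 0.40 at 1 h (limma F test, adjusted p = 0.772). The +16.2 kb CRE had 3 and 4 in UT and between 5 and 23 after LPS, with 1.27 ± 0.43 at 4 h (adjusted p = 0.0737). All LPS libraries of the latter lay above UT, but at values that rest on few reads.

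The Ccl24 CREs of highest UT value lost acetylation after LPS. The +4.3 kb CRE had 161 and 131 in UT, 36 and 31 at 30 min, 60 and 52 at 1 h, 53 and 41 at 2 h, and 21 and 23 at 4 h. No LPS library reached the UT range, and the loss was present at the first time measured. The log2 difference was -1.97 at 30 min and -2.48 ± 0.26 at 4 h (limma F test, adjusted p = 2.83e-09).

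The Ccl24 promoter CRE had 62 and 51 in UT, 23 and 16 at 30 min, 39 and 33 at 1 h, 18 and 32 at 2 h, and 8 and 10 at 4 h. Both CREs were lower at 30 min than at 1 h, without overlap between the libraries of the 2 times, and lowest at 4 h. The promoter CRE differed from UT by -0.58 at 1 h and by -2.13 ± 0.33 at 4 h (limma F test, adjusted p = 9.84e-06). The -9.4 kb CRE had 30 and 25 in UT and 10 and 7 at 4 h, a log2 difference of -1.27 ± 0.35 (adjusted p = 0.00196), while 1 library at 1 h stood at 41, above UT. This call was lost when replicate 2 of the 4 h LPS group was left out (-1.11, adjusted p = 0.0333) and with a pseudocount of 20 (-0.74).

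The Ccl24 -2.6 kb CRE went the other way. It had 4 and 6 in UT, 8 and 10 at 30 min, 21 and 20 at 1 h, 26 and 44 at 2 h, and 17 and 7 at 4 h. All LPS libraries lay above UT, with a log2 difference of 1.97 ± 0.39 at 2 h (limma F test, adjusted p = 0.000307). The Ccl24 +21.2 kb CRE had 12 and 9 in UT and between 6 and 20 after LPS, and its largest difference was -0.37 ± 0.41 at 4 h (adjusted p = 0.532).

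After IL-4, all 5 Ccl24 CREs rose by 30 min, and no CRE of Ccl17 or Ccl22 was called. The test was the same, over the UT and IL-4 libraries. Of the 15 CREs 7 had a mean value of at least 10 in these libraries and were tested, all 5 of Ccl24 and 2 of Ccl17. The 5 calls were all higher, against 24.7% called among the 47018 CREs in the test (13.6% higher and 11% lower). At 1 h the median log2 difference was 1.75 for the Ccl24 CREs and 0.03 for all tested CREs. The 8 CREs that were not tested had means between 2.5 and 9.3, so their low values in the IL-4 libraries kept them out.

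The Ccl24 +21.2 kb CRE, the most distant of its gene, had the largest IL-4 difference of the members. It carries the STAT6 type motif printed above, which 9.21% of all CREs held, and a part of the motif in the rise was not tested. From 12 and 9 in UT this CRE went to 138 and 115 at 30 min of IL-4, 134 and 129 at 1 h, 121 and 134 at 2 h, and 91 and 79 at 4 h. The libraries of the first 3 times overlapped, and those at 4 h were lower. The log2 difference was 3.15 ± 0.21 at 1 h and 2.54 at 4 h (limma F test, adjusted p = 3.13e-19).

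The Ccl24 promoter CRE stood at 178 and 158 at 30 min of IL-4, 186 and 218 at 1 h, 194 and 191 at 2 h, and 179 and 127 at 4 h. Every IL-4 library lay above the UT values of 62 and 51, and every LPS library lay below them. The log2 difference was 1.75 ± 0.16 at 1 h (limma F test, adjusted p = 6.21e-13). The +4.3 kb CRE, with the highest UT values around this gene, had 313 and 287 at 30 min, 314 and 302 at 1 h, 279 and 331 at 2 h, and 249 and 250 at 4 h. Its difference of 1.06 ± 0.13 at 1 h (adjusted p = 4.41e-10) lay close to the threshold of 1 and went under it without replicate 2 of the UT group (0.91), with a pseudocount of 20 (0.99) and with quantile normalisation (0.98).

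The upstream CREs of Ccl24 rose too. The -2.6 kb CRE stood at 55 and 45 at 30 min, 48 and 54 at 1 h, 57 and 58 at 2 h, and 42 and 46 at 4 h, with a log2 difference of 2.65 ± 0.28 at 2 h (limma F test, adjusted p = 8.45e-12). It was thus called higher after both stimuli, and its highest LPS library, 44 at 2 h, overlapped its lowest IL-4 libraries. The -9.4 kb CRE stood at 97 and 61 at 30 min, 83 and 100 at 1 h, 66 and 75 at 2 h, and 51 and 69 at 4 h (1.57 ± 0.24 at 1 h, adjusted p = 1.26e-06). Among the Ccl24 CREs the order of the IL-4 times differed from CRE to CRE, and only at the +21.2 kb and +4.3 kb CREs did the 4 h libraries lie below all other IL-4 libraries.

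The tested Ccl17 CREs showed no called change with IL-4. The -5.8 kb CRE had 49 and 30 in UT, between 24 and 36 up to 2 h, and 44 and 56 at 4 h, with a lowest log2 difference of -0.47 ± 0.29 at 2 h (limma F test, adjusted p = 0.0779). The +2.0 kb CRE had 9 and 13 in UT and 22 and 24 at 4 h, above UT, with 0.82 ± 0.37 (adjusted p = 0.316). The Ccl17 promoter CRE stood between 7 and 15 in the 8 IL-4 libraries, above the UT values of 6 and 2. Tested with no filter on low values, its difference was 1.07 ± 0.38 at 4 h (adjusted p = 0.150), and all 15 CREs gave the same 5 higher calls and 0 lower. At the Ccl22 promoter CRE the IL-4 libraries held between 3 and 16, around the UT values of 12 and 11.

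The direct comparison of LPS with IL-4 at matched times separated the genes. Of the 14 CREs tested, 13 were called. After LPS 8 were higher (4 of Ccl17 and all 4 of Ccl22) and 5 lower (all 5 of Ccl24). Over the 50587 tested CREs 58.4% were called, 29.2% in each direction. The 4 Ccl22 CREs and the Ccl17 -23.9 kb and promoter CREs had means under 10 in the UT and IL-4 libraries. Their LPS values brought them into the test, which limits the comparison with these shares. With no filter on low values, 8 higher and 5 lower members were found as well. The Ccl22 promoter CRE was higher after LPS by 2.94 ± 0.36 on the log2 scale at 1 h (limma F test, adjusted p = 8.84e-14) and by 1.91 at 4 h. The Ccl22 -5.7 kb CRE was higher by 3.13 ± 0.42 at 2 h (adjusted p = 4.92e-12) and the Ccl17 -23.9 kb CRE by 3.09 ± 0.35 at 1 h (adjusted p = 4.03e-12). The Ccl17 promoter CRE was higher by 2.48 ± 0.35 at 1 h (adjusted p = 1.97e-09).

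For Ccl24 the promoter CRE differed by -3.48 ± 0.25 at 4 h (limma F test, adjusted p = 1.16e-21), the +4.3 kb CRE by -3.24 ± 0.19 at 4 h (adjusted p = 1.41e-25) and the +21.2 kb CRE by -2.95 ± 0.30 at 2 h. The -2.6 kb CRE, which gained after both stimuli, differed most at 30 min, by -1.97 ± 0.33. The CRE that passed no threshold was the Ccl17 +16.2 kb CRE (0.88 ± 0.43 at 1 h, adjusted p = 0.0859).

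From 30 min to 4 h the distance between the stimuli narrowed at 2 of the 5 tested Ccl17 CREs. The difference of LPS from IL-4 at 4 h less that at 30 min was -1.64 ± 0.50 at the Ccl17 -23.9 kb CRE (limma, adjusted p = 0.00817) and -1.33 ± 0.39 at the Ccl17 -5.8 kb CRE (adjusted p = 0.00607). These were the 2 calls among the 14 CREs, both lower, against a share of 21.5% over all CREs in the test (14.7% higher and 6.78% lower). The Ccl17 promoter and +2.0 kb CREs gave -1.13 ± 0.50 (adjusted p = 0.0739) and -1.07 ± 0.50 (adjusted p = 0.095), and the Ccl17 +16.2 kb CRE gave 1.34 ± 0.60 (adjusted p = 0.078). At the -23.9 kb CRE the difference of LPS from IL-4 was 1.98 at 30 min and 3.09 at 1 h before it came down. The -5.8 kb call was lost with a pseudocount of 20 (-0.998). At 4 h the LPS minus IL-4 differences of the -23.9 kb, -5.8 kb, promoter and +2.0 kb CREs of Ccl17 were 0.34, -0.49, -0.35 and -0.40, while those of the 4 Ccl22 CREs, from -5.7 kb to +10.8 kb, were 2.15, 1.91, 0.42 and 0.76.

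**Figure D2:**
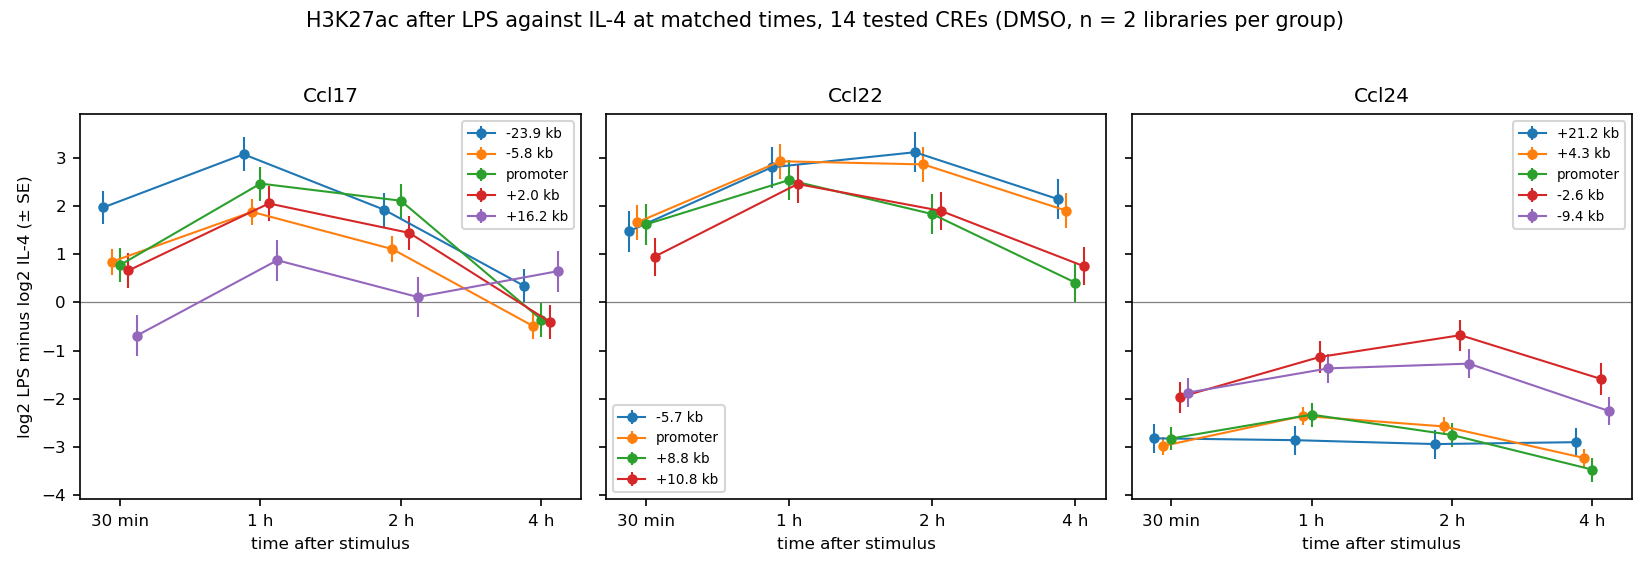
Difference of LPS from IL-4 on the log2(value + 5) scale at each matched time (evenly spaced) for the 14 tested CREs, 2 libraries per group, with bars for the standard error. Points above 0 are higher after LPS. The Ccl17 -23.9 kb CRE goes from 3.09 at 1 h to 0.34 at 4 h, while the Ccl24 promoter CRE reaches -3.48 at 4 h.

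Some CREs beyond the 25 kb limit changed and others were not called. The Ccl17 -23.9 kb CRE, whose centre lay 23898 bp from a start, was just inside it. The CRE just outside, 25.8 kb downstream of Ccl17 in Ciapin1, had 16 and 19 in UT and 100 and 139 at 1 h of LPS, a log2 difference of 2.45 ± 0.24. A CRE 30.8 kb upstream of Ccl22 had 16 and 15 in UT and 256 and 278 at 2 h of LPS. Beyond Ccl24, the CRE at +27.6 kb, near the start of Hip1, had 42 and 56 in UT. It was called higher after IL-4 (1.60 ± 0.19 at 1 h), as were the 5 Ccl24 members, and was not called after LPS. The Ccl17 -30.3 kb and Ccl22 +26.5 kb CREs were also called higher after LPS. The Ccl17 +28.1 kb, Ccl22 -34.2 kb, Ccl22 +30.8 kb and Ccl24 +35.5 kb CREs were called after neither stimulus. Over all tested CREs 53.5% were called after LPS and 24.7% after IL-4.

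**Figure D3:**
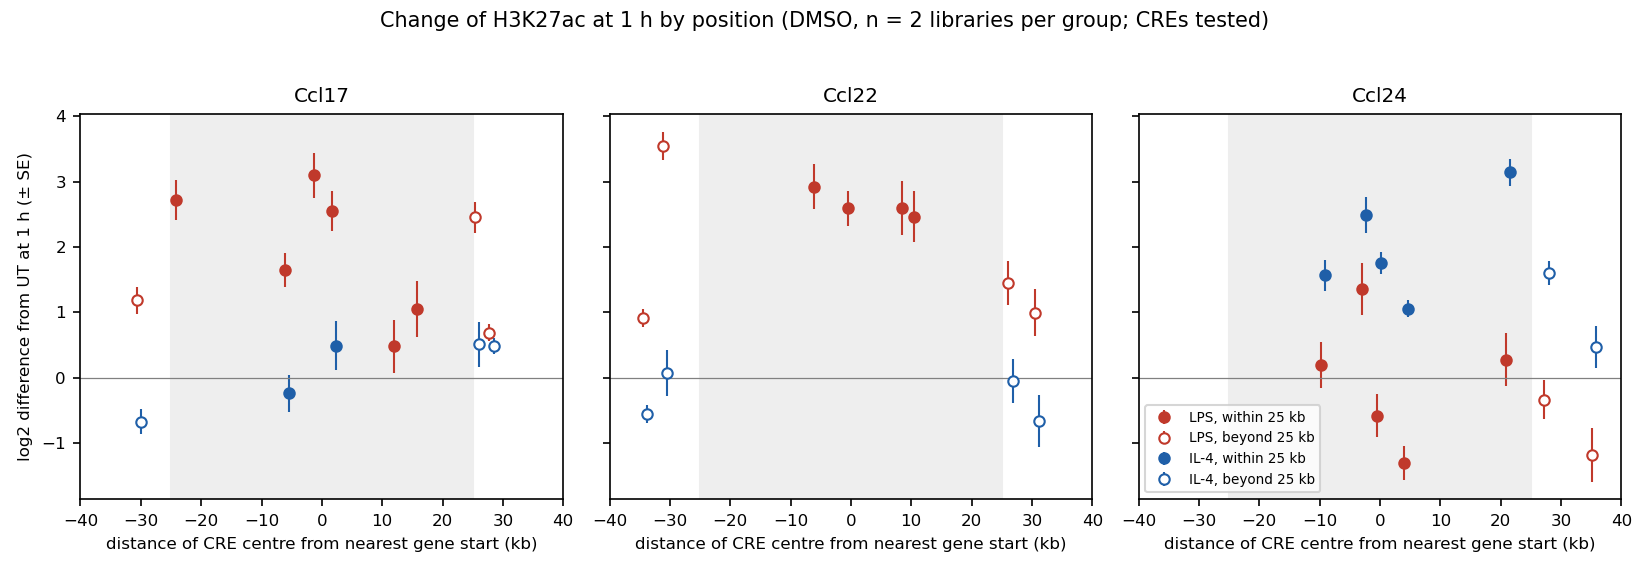
Log2 difference from UT at 1 h of LPS (red) and IL-4 (blue) against the distance of the CRE centre from the nearest start of each gene, in kb along the direction of transcription, with bars for the standard error (2 libraries per group). Filled points are members (grey band, within 25 kb), open points are CREs beyond it, and red and blue points of a CRE are set slightly apart. Red points lie above 0 around Ccl17 and Ccl22, and the blue points of the Ccl24 members lie between 1.06 and 3.15.

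Over the 18 DMSO libraries the CREs of Ccl22 followed each other (median Pearson r of the log2 values 0.87 over 6 pairs), as did those of Ccl24 (0.89 over 10 pairs). Those of Ccl17 were looser (0.55 over 15 pairs). Between genes the median r was 0.72 for Ccl17 with Ccl22 (24 pairs), -0.39 for Ccl17 with Ccl24 (30 pairs) and -0.63 for Ccl22 with Ccl24 (20 pairs). The points are libraries of 9 shared groups, so these values describe the time courses.

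Among 10652 promoter CREs compared over the same 18 libraries, those closest in pattern to the Ccl17 promoter CRE belonged to Rgs9 (r = 0.94), Eif3c (0.93), Cox17 (0.92), Ly9 (0.92) and Rnaseh1 (0.90). Those closest to the Ccl22 promoter CRE belonged to Cd2bp2 (0.96), Anxa7 (0.96), Ifnb1 (0.95), Zbtb32 (0.95) and Ift57 (0.95). The Ccl24 promoter CRE was followed most closely by Kif13b (0.98), Eef2k (0.97), Slc26a6 (0.97), Oxr1 (0.97) and Shcbp1l (0.96).

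The other genes of the pathway were read at their promoter CREs. Of 44 listed genes of IL-4 signalling, its transcription factors and its targets, 36 had a promoter CRE. After IL-4, 17 of the 36 were called higher and 1 lower, and after LPS 14 were higher and 10 lower, against the shares of all CREs given above. Among the receptor and signal genes, IL-4 raised the feedback inhibitor genes Cish (2.48 ± 0.12 on the log2 scale), Socs1 (2.25 ± 0.08) and Socs3 (1.07), as well as the kinase gene Jak2 (1.22). LPS raised the same 4, with Cish at 3.37 ± 0.14 and Jak2 at 2.73 ± 0.09, and lowered Stat6 (-1.27 ± 0.11).

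Among the transcription factor genes, Irf4 (1.51 ± 0.20), Egr2 (1.82 ± 0.10) and Batf3 (1.86 ± 0.14) rose with IL-4. Of the IL-4 target genes 15 of 21 had a promoter CRE, and 10 rose with IL-4. The PD-1 ligand gene Pdcd1lg2 rose by 4.60 ± 0.17, the lectin gene Mgl2 by 2.59 ± 0.11 and Arg1, the arginase gene, by 2.38 ± 0.10. Like the Ccl24 promoter CRE, those of Arg1 (-1.52) and Mgl2 (-2.16 ± 0.31) fell after LPS, whereas Pdcd1lg2 and the chemokine genes Ccl2, Ccl8 and Ccl12 rose after both stimuli. The 4 genes of the LPS list with a promoter CRE, Il6 (4.20), Cxcl10 (4.28), Ifnb1 (3.67) and Nos2 (4.53), all rose after LPS, as the Ccl17 and Ccl22 promoters did.

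Of the receptor genes, Ccr3, the receptor of Ccl24, fell after IL-4 (-1.35 ± 0.10) and was not called after LPS. Ccr4, the receptor of Ccl17 and Ccl22, had 17 and 9 in UT and was not tested. Of the neighbours, Cx3cl1, a chemokine gene downstream of Ccl22, rose after LPS (1.45 ± 0.34), and Hip1, beside Ccl24, fell after LPS (-2.64 ± 0.21) and was not called after IL-4 at the CRE nearest to any of its starts, which is not the +27.6 kb CRE.

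The inhibitors were compared with DMSO by level, with 1 coefficient per inhibitor over its UT and stimulated libraries (limma, 1 fit for the LPS and 1 for the IL-4 time course). The call for a pair of a CRE and an inhibitor asked for a log2 difference over 0.5 and for an adjusted p under 0.05. After IL-4 most pairs of Ccl17 and Ccl22 CREs with inhibitors were called higher, and most pairs of Ccl24 CREs were not called. After LPS, 436 of the 870 pairs of the 15 CREs and 58 inhibitors were higher (50.1%) and 0 lower, while 32.3% of all pairs were higher and 4.04% lower. After IL-4, 511 pairs were higher (58.7%) and 7 lower (0.805%), while 36.2% of all pairs were higher and 3.03% lower. By gene, 82.5% of the Ccl17 pairs, 82.3% of the Ccl22 pairs and 11.4% of the Ccl24 pairs were higher after IL-4, and after LPS 64.7%, 51.3% and 31.7%. Of the 33 higher Ccl24 pairs after IL-4, 31 were at the -2.6 kb CRE and 2 at the +21.2 kb CRE. After LPS the lowest counts among the Ccl17 and Ccl22 CREs were 24 of 58 inhibitors at the Ccl22 promoter CRE, 26 at the Ccl22 +10.8 kb CRE and 29 at the Ccl17 -23.9 kb CRE. Those of the Ccl24 CREs were 2 at the +4.3 kb, 5 at the promoter, 8 at the -9.4 kb, 38 at the +21.2 kb and 39 at the -2.6 kb CRE.

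These calls moved with the contrast of the libraries, which is the median value of the top 10% of CREs over that of the bottom 10%. The contrast ran from 53 to 134 in the DMSO libraries and from 3.34 to 67.2 in the inhibitor libraries (medians 75.1 and 17.6). Within DMSO it was 94 and 127 in UT, between 53 and 73.8 after LPS, and between 66.2 and 134 after IL-4. Its part in the differences between the DMSO groups was not tested. Over the 58 inhibitors, the level difference after IL-4 had a Pearson r with the log contrast of -0.83 at the Ccl22 promoter CRE, -0.72 at the Ccl17 promoter CRE and 0.06 at the Ccl24 promoter CRE. After LPS the values were -0.33, -0.61 and 0.15. The other Ccl24 CREs had negative values after both stimuli. From +21.2 kb through +4.3 kb and -2.6 kb to -9.4 kb, they were -0.34, -0.13, -0.45 and -0.41 after IL-4. After LPS they were -0.61, -0.58, -0.27 and -0.39 in the same order. The part of contrast in the calls was not tested. With quantile normalisation of the libraries, the higher pairs dropped from 436 to 19 after LPS and from 511 to 77 after IL-4, and against the mean of all compounds in place of DMSO 14 and 37 were left.

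**Figure D4:**
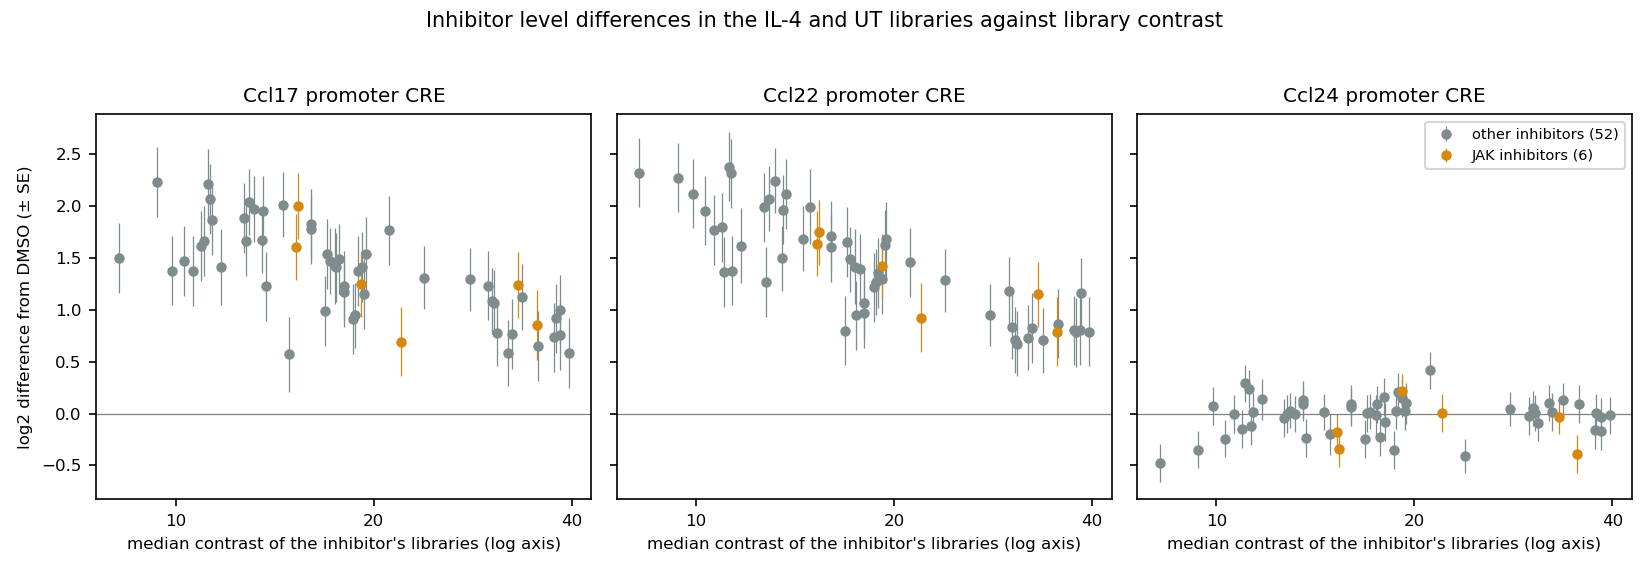
Log2 level difference from DMSO in the IL-4 and UT libraries (bars, standard error) against the median contrast of the inhibitor's libraries (log axis), 1 point per inhibitor, for the promoter CREs of the 3 genes. The 6 JAK inhibitors are orange and the 52 others grey. The differences fall as contrast rises at Ccl22 (r = -0.83) and Ccl17 (r = -0.72), and those at Ccl24 stay between -0.47 and 0.42.

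The inhibitors fell into 6 runs of neighbouring columns of the deposited table. These were read from the column order alone, and the labels name no batch or date. Because the DMSO libraries were in none of them, run and inhibitor cannot be told apart in the difference from DMSO. The median differences of the Ccl22 promoter CRE after IL-4 in the 6 runs were 1.96, 1.41, 1.33, 0.84, 0.79 and 1.70. Those of the Ccl17 promoter CRE were 1.56, 1.20, 1.39, 0.81, 1.11 and 1.88, and those of the Ccl24 promoter CRE were -0.16, -0.01, 0.14, -0.02, 0.03 and 0.02. The promoter CREs of the first 2 genes thus stood above DMSO in every run, and that of Ccl24 near it. Not every Ccl24 CRE did so, since the run medians lay between 0.33 and 1.07 at the -2.6 kb CRE and between -0.43 and -0.09 at the +4.3 kb CRE.

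The UT libraries already showed this offset. At the Ccl22 promoter CRE, the UT value of the inhibitors lay between 17 and 87 (median 36), above both DMSO libraries (11 and 12) for 58 of 58 inhibitors. At the Ccl17 promoter CRE it lay between 7 and 103 (median 23), again above both (2 and 6) for all 58. The Ccl24 promoter CRE, whose DMSO values were 51 and 62, lay between 17 and 124 (median 49), above both for 16 inhibitors and below both for 32. The Ccl24 +4.3 kb CRE was below both DMSO libraries (131 and 161) for 41 of 58. Of the inhibitors 43 had 1 UT library and 15 had 2, the second with a suffix in its title whose meaning the labels do not give, so that it may be a repeat of the same culture.

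The responses were also read within each inhibitor, as the mean of its stimulated libraries less that of its UT libraries. Some inhibitors lacked a time, so their means covered fewer times than those of DMSO. MK2206 and Encorafenib, for example, had no LPS library at 4 h. All 5 Ccl24 CREs stood higher in the mean of the IL-4 libraries than in the inhibitor's own UT for 58 of 58 inhibitors. The median rise of the Ccl24 promoter CRE was 1.77 (range 0.59 to 2.98) on the log2 scale, against 1.57 in DMSO, and that of the +4.3 kb CRE was 1.05 against 0.97. The +21.2 kb CRE rose by a median of 2.06 against 2.97 in DMSO, and the -2.6 kb CRE by 1.37 against 2.48.

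After LPS, the mean stood above the own UT for 55 of 58 inhibitors at the Ccl22 promoter CRE (median 1.15, DMSO 1.96) and for 53 at the Ccl17 promoter CRE (0.94, DMSO 2.06). It stood above the own UT for 10 of 58 at the Ccl24 promoter CRE (median -0.57, DMSO -1.28) and for 2 at the Ccl24 +4.3 kb CRE (-1.16, DMSO -1.82). At the Ccl24 -9.4 kb CRE, which was called lower in DMSO, 36 of 58 stood above the own UT (median 0.18, DMSO -0.42).

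**Figure D5:**
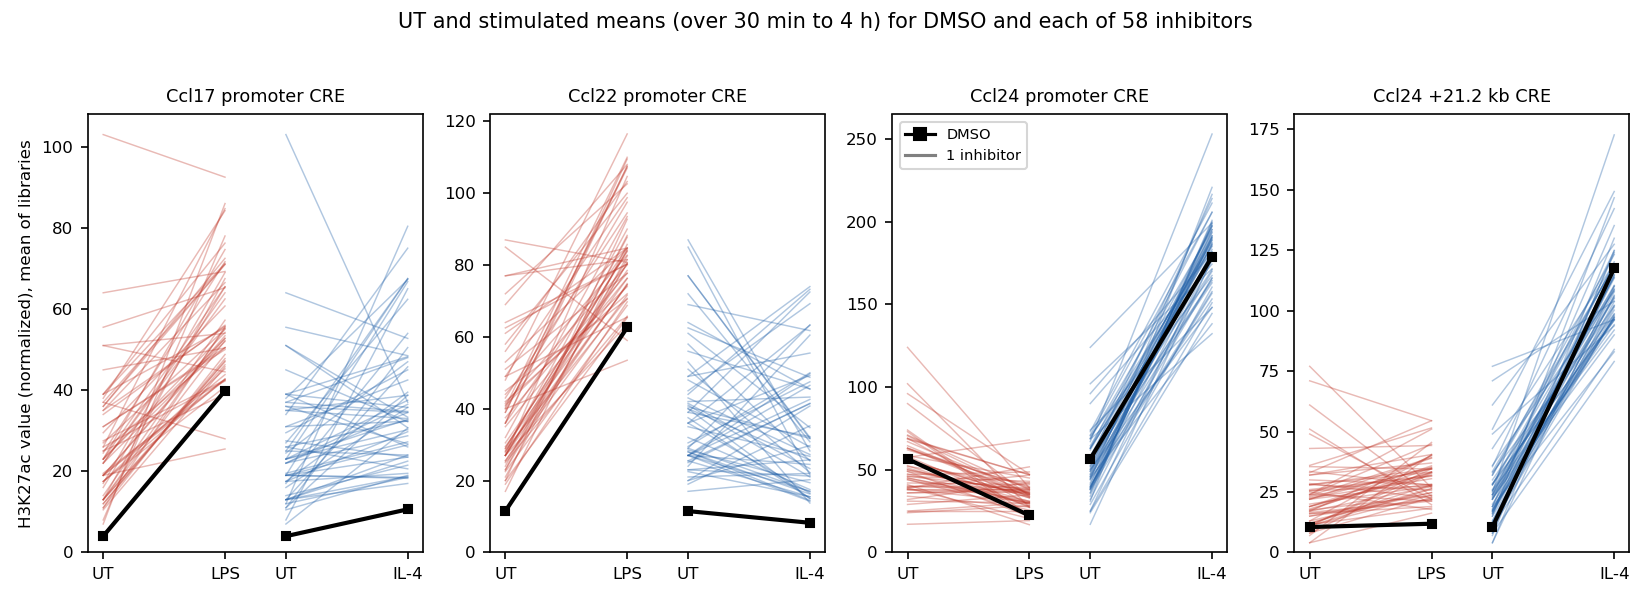
Mean H3K27ac value (normalised, linear axis from 0) in UT and in stimulated libraries at 4 CREs. Black squares are DMSO and thin lines the 58 inhibitors (red for LPS, blue for IL-4). Stimulated means cover the times present from 30 min to 4 h. Every line of the Ccl24 promoter and +21.2 kb CREs goes up with IL-4, and the UT ends of the Ccl17 and Ccl22 lines lie above DMSO.

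Tested as a response over the own UT against that of DMSO, a comparison added after the data were seen, few pairs were called. After LPS 2 pairs of 870 were higher and 11 lower (0.23% and 1.26%), while 0.0415% and 0.589% of all pairs were called. Of the 11, 9 were at Ccl22 CREs and 2 at Ccl17 CREs, and 6 belonged to Talmapimod, whose UT values there were between 51 and 102. The Talmapimod calls rested on 1 UT library, with a contrast of 7.02 against a run median of 17.9. In it 1 read was worth 12.8, and the part of this library in the calls was not tested. The 2 higher pairs were Afatinib and PH797804 at the Ccl24 +4.3 kb CRE. After IL-4 1 pair was higher and 10 were lower, while 0.0631% and 0.251% of all pairs were called. The lower pairs lay at the Ccl24 +21.2 kb CRE (4 inhibitors, the largest Apatinib at -2.83 ± 0.50) and the Ccl24 -2.6 kb CRE (6 inhibitors). Apatinib had 1 UT library, which stood at 77 at the +21.2 kb CRE, the highest UT value of the 58 inhibitors there (median 22).

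The 7 pairs that were lower than DMSO in level after IL-4 were all at Ccl24 CREs. At the Ccl24 +4.3 kb CRE, PH797804, a p38 inhibitor, differed by -1.06 ± 0.16 (limma, adjusted p = 3.57e-09), with a UT value of 42 and an IL-4 mean of 152. Tofacitinib, a JAK inhibitor, differed there by -0.73 ± 0.16 (adjusted p = 0.000643), with a UT value of 75 and an IL-4 mean of 182. The PH797804 libraries stood apart from the others of their run. Their contrast was between 7.26 and 14.7 in UT and IL-4, against a run median of 35.1, and the LPS library at 30 min had 12451 CREs at 0. The part of this in its calls was not tested. The UT libraries of both compounds lay below DMSO, and the rise over the own UT was present with both. Afatinib (-0.61), Neratinib (-0.59), GSK2110183 (-0.55) and Lapatinib (-0.53) were the others at this CRE, and AMG208 was called at the Ccl24 -9.4 kb CRE (-0.64 ± 0.24, adjusted p = 0.0209).

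At the promoter CREs, the inhibitors at both ends of the order are given. After IL-4 no inhibitor was called at the Ccl24 promoter CRE, where Omipalisib (-0.47 ± 0.18, limma, adjusted p = 0.0171), BMS387032 (-0.41) and Tofacitinib (-0.39 ± 0.18) were lowest and NMS1286937 (0.42) was highest. Omipalisib missed the call by its size. At the Ccl22 promoter CRE the 58 differences ran from AC480 (0.68, not called) to AZD8186 (2.38 ± 0.33), and 47 were called higher. At the Ccl17 promoter CRE they ran from Lenvatinib (0.57, not called) to X396 (2.24 ± 0.34), and 47 were called higher. Neighbours in these orders differed by less than their standard errors.

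After LPS, 24 inhibitors were called higher at the Ccl22 promoter CRE, and of all 58 MK2206 (0.07), BGT226 (0.15) and Vatalanib (0.19) were lowest and Neratinib (1.08 ± 0.25) was highest. At the Ccl17 promoter CRE 30 were called higher, and of all 58 BGT226 (0.07 ± 0.33) was lowest and Bafetinib (1.82 ± 0.33, limma, adjusted p = 8.84e-07) highest. At the Ccl24 promoter CRE 5 were called higher, and the order of all 58 went from X396 (-0.60 ± 0.35) to Losmapimod (1.02 ± 0.35).

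JAK kinases pass on the signal of the IL-4 receptor, so the 6 JAK inhibitors were compared with the 52 others, with the inhibitor as the unit and the run of columns in the model. None of the 15 CREs was called for either stimulus (limma, 0 calls, and 0 at an unadjusted p under 0.05), while 0 of 59163 CREs were called after LPS and 2 of 59147 (0.00338%), both lower, after IL-4. Over all CREs the unadjusted p was under 0.05 for 2.27% after LPS and 3.68% after IL-4. The Ccl24 promoter CRE differed by -0.08 ± 0.07 after IL-4, and its response over the own UT by -0.04 ± 0.18. Over the 15 CREs the differences were between -0.18 and 0.22 after IL-4 and between -0.10 and 0.20 after LPS. The single JAK inhibitors at the Ccl24 promoter CRE after IL-4, against DMSO, were Tofacitinib (-0.39), BMS911543 (-0.34, adjusted p = 0.0695), Filgotinib (-0.18), Ruxolitinib (-0.03), Pacritinib (0.01) and Momelotinib (0.21). Their concentrations differed, so no order of the 6 was tested.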

How the data were processed

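H3K27ac chromatin immunoprecipitation was sequenced in 564 libraries of mouse bone marrow-derived macrophages. According to the study's methods, single-end reads trimmed to 51 bp were mapped to mm10 (Bowtie and SAMtools are named in the submitters' processing notes), counted within 700 bp of accessible-site summits and scaled on invariant sites. The deposited values are thus a score, counts normalised by the authors and rounded to whole numbers, and no count model was used. Groups came from the sample labels. Values were tested on log2(value + 5) with limma 3.58.1 (R 4.3.3), with Benjamini-Hochberg adjustment over all CREs with a mean of at least 10 in the fit. DMSO time courses were fitted with time, stimulus comparisons with group, inhibitors with time and compound, and JAK inhibitors with run. The steps were tested on simulated data. Alternatives were pseudocounts of 1 and 20, no filter, quantile normalisation, a replicate block, other library sets, another reference and left-out libraries. All 15 CREs are accounted for, and inhibitors were named by rank at the promoter CREs (3 lowest and 3 highest, or some of these) or by a lower call. JAK inhibitors, pathway lists and likeness (5 highest r) were set by rule. The members and lists were chosen with earlier results of these data known. Sequences and positions are from RefSeq GRCm38.p6, read with Python 3.11.15.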

Additional observations from a re-analysis of the deposited data

Results flagged for a closer look

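At 2 CREs of Ccl17 the difference of LPS from IL-4 changed with time by the test of that change itself. From 30 min to 4 h it moved by -1.64 ± 0.50 at the Ccl17 -23.9 kb CRE (limma, adjusted p = 0.00817) and by -1.33 ± 0.39 at the Ccl17 -5.8 kb CRE (adjusted p = 0.00607), on the log2(value + 5) scale with 2 libraries per group. The second call was lost with a pseudocount of 20 (-0.998). At both, LPS libraries lay above IL-4 libraries at 30 min, and at 4 h those of the -5.8 kb CRE lay below them.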

How the results depend on the processing

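The DMSO counts of member and pathway CREs were within 1.5 times of the values given under every alternative run, and no result reversed. The exception was the change from 30 min to 4 h, where 1 of the 2 lower calls, that of the Ccl17 -23.9 kb CRE, was left with a pseudocount of 20. A pseudocount of 20 also ended the calls of the Ccl24 -9.4 kb CRE after LPS (-0.74) and of the Ccl24 +4.3 kb CRE after IL-4 (0.99). With the replicate block, 9 higher and 3 lower member calls after LPS, 5 higher after IL-4, and 8 higher and 5 lower between the stimuli were found, as without it, and the block changed no other count of calls by over 1.5 times. Same-numbered DMSO libraries did not deviate together (0 of 36 correlations over 0.1), so the numbers were not taken as pairs. Leaving out single DMSO libraries gave 2 to 3 lower calls after LPS, 4 to 5 higher calls after IL-4 and 7 to 8 higher calls between the stimuli. The inhibitor counts depended on the scaling. After LPS the 436 higher pairs became 19 with quantile normalisation, 14 against the mean of all compounds, 279 with stimulated libraries only, 284 to 343 without a DMSO replicate and 2 as a response over the own UT, and the 0 lower pairs became 4, 9 and 11 with the quantile, mean and own-UT settings. After IL-4 the 511 higher pairs became 77, 37 and 1, and the 7 lower became 15 with quantile normalisation. The replicate block was not run for the inhibitors, which share no numbered pairs. Values near 10 rest on few reads, and most inhibitor points on 1 library, so small differences between single inhibitors may not be detectable at this depth.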
